A study of Mus musculus with 6 samples.

Results

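The genes described here are the abundant protein-coding genes of the neonatal right ventricle (RV) whose reads were higher after pulmonary artery banding (PAB) than after a sham operation. They were chosen by their measured values. A gene entered if the authors' table lists it as protein-coding, if its mean over all 6 libraries was at least 1000 normalized reads, and if its PAB mean was above its sham mean. A set of 18 named symbols was left out, of which 12 met these limits. This gave 36 of the 617 listed genes, and 36 of the 269 listed protein-coding genes that were higher in PAB. The 18 symbols were also kept off the gene lists used for comparison, although all 18 are in the table and higher in PAB. They include Cnn1 of smooth muscle, Flt1 of endothelium, Acta1 and Xirp2 of muscle, and Ctgf, Eln and Ltbp2 of the matrix. Lox, Loxl2 and Plod2 modify collagen, Pfkp, Pgam1 and Aldoc are glycolytic, Bnip3 and Ddit4 respond to hypoxia, Slc2a1 and Slc6a6 are transporters, and Nmrk2 is a kinase. A count of listed genes from a list is therefore not a count of all such genes in the table. Since the 36 genes were selected on the PAB and sham means, their difference between the groups is a description. The adjusted p-values given below reuse the values that selected the genes, so they are not read as a test of that difference.

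The series holds RV tissue of wild-type (WT) C57/BL6J mice in 2 groups of 3 libraries. Pups of the PAB group had a band placed around the pulmonary artery on postnatal day 1, so that the RV pumped against a raised pressure, and pups of the sham group had the operation without the band. In both groups the RV was taken on postnatal day 7. The pups were of either sex, and it is not stated whether a library is a single animal. Each value is a read count of a gene that the authors divided by 1 size factor of its library, called normalized reads here. The smallest size factor was 0.939, that of PAB replicate 1, and the largest 1.07, that of sham replicate 2, but total depth is unknown because the table lists a selection of genes. In every listed gene the PAB mean was at least 2.001 times the sham mean or at most 0.500 times it, so a smaller difference could not be seen.

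Under a raised load, cardiomyocytes of the ventricle enlarge and return in part to a fetal pattern of transcription. The genes for the natriuretic peptides, hormones that lower blood volume and pressure, are a classic sign of this state. Cytoskeletal proteins that tie the Z-discs of neighbouring myofibrils together, and stress proteins that sit on the same structures, carry and sense the force. Fibroblasts and vessel cells around the muscle cells make and remodel the extracellular matrix that bears part of the load.

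Of the 3 PAB libraries, replicate 1 stood apart. The 36 genes together had 83341, 79963 and 87285 normalized reads in sham replicates 1 to 3 and 334993, 203745 and 163878 in PAB replicates 1 to 3. All 3 PAB sums were above all 3 sham sums, the sham libraries were close to each other, and PAB replicate 1 was far above the other PAB libraries. The PAB mean was 2.80 times the sham mean, and 2.20 times without PAB replicate 1. Within the table the 36 genes held 26.8, 26.8 and 27.6% of the normalized reads in sham replicates 1 to 3 and 47.7, 43.6 and 41.2% in PAB replicates 1 to 3. These are shares of the listed genes, not of the library.

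In each of the 36 genes every PAB value was above every sham value, as in 44.6% of all listed genes. In limma all 617 listed genes had an adjusted p-value under 0.05, the 36 among them, and 47.0% were called and higher in PAB, so a call sets no gene or list of the table apart. Both counts follow in part from how the genes were listed and chosen, and nothing is read from them. Des was not called without sham replicate 1 or without sham replicate 2. Its log2 fold change was then 0.97 (SE 0.43) and 0.98 (SE 0.44), beside 0.98 (SE 0.32) with all libraries. The median log2 fold change of the 36 genes was 1.304, on the scale log2(value + 1), beside -1.03 over all listed genes and 1.45 over the 290 listed genes higher in PAB. The ratio of the means ran from 2.001 (Tnfrsf12a) to 58.1 (Nppa). It was at least 3 in 12 of the 36 genes and under 2.5 in 15. In a bulk tissue, more RNA per cell and more cells of a type cannot be told apart.

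**Figure D1:**
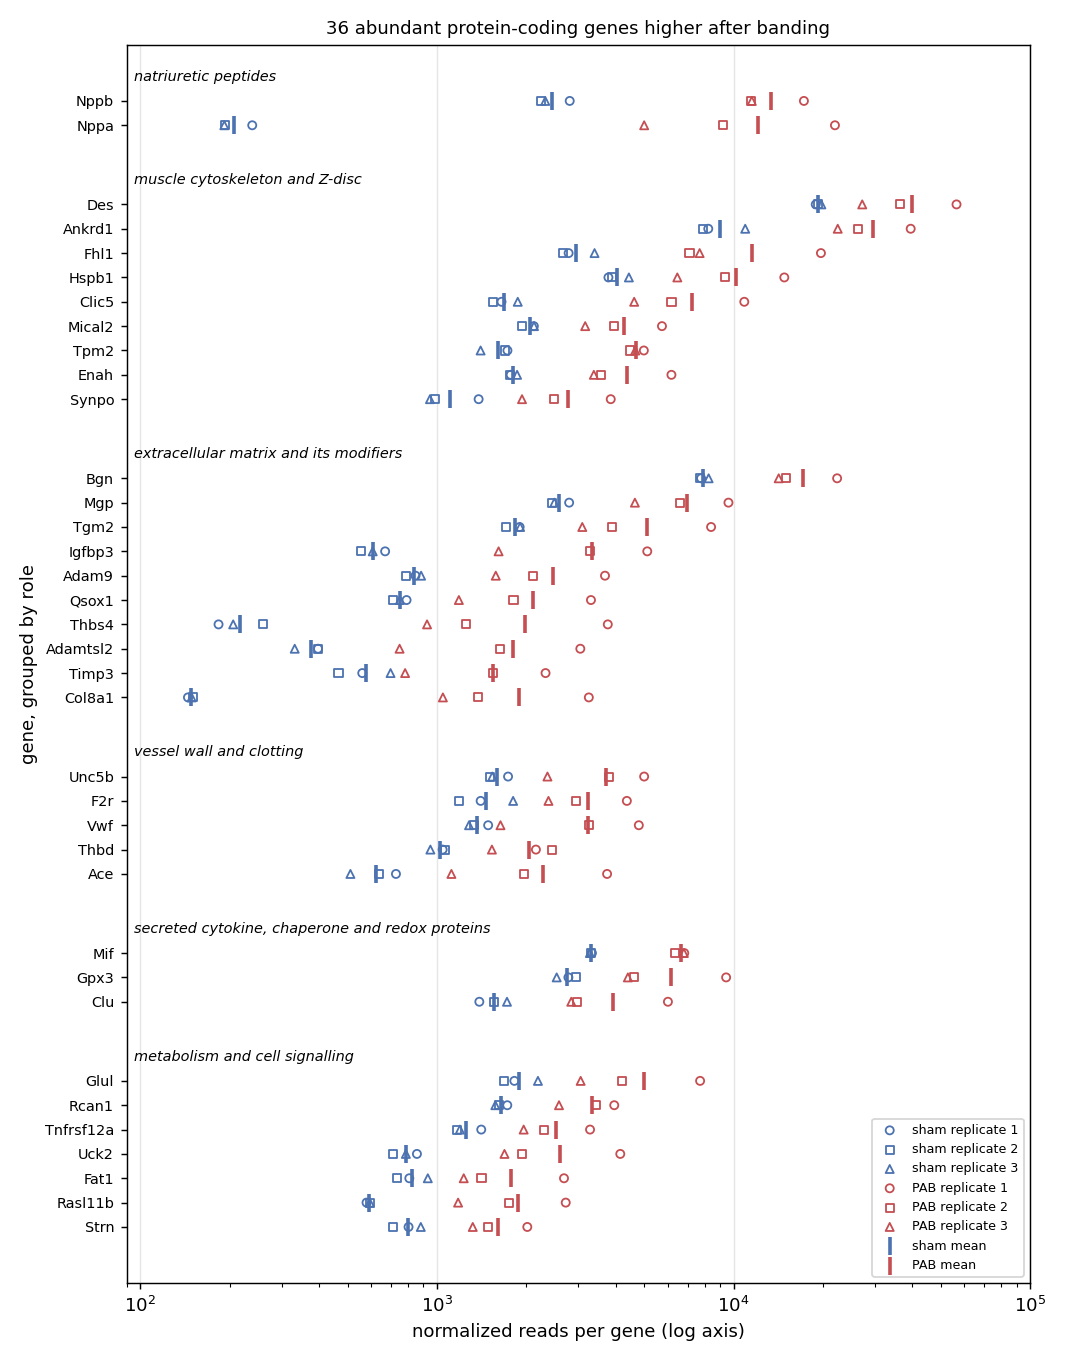
Normalized reads of each of the 36 genes in each library, on a log axis, with genes grouped by role. Open symbols are libraries (blue sham, red PAB, shape by replicate number) and vertical bars are group means of 3 libraries. In all 36 genes the 3 red symbols lie to the right of the 3 blue ones, and PAB replicate 1 is the rightmost in 35 of them.

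Among the 36 genes the widest gap between the groups was in a natriuretic peptide gene. Nppa, which encodes atrial natriuretic peptide, had 238, 193 and 192 normalized reads in sham replicates 1 to 3 and 21964, 9218 and 4995 in PAB replicates 1 to 3. It was low and even in sham, and every PAB library was far above, with replicate 1 the highest and replicate 3 the lowest. Its lowest PAB value was 21.0 times its highest sham value. The ratio of the means was 58.1, or 34.2 without PAB replicate 1, and the log2 fold change was 5.60 (SE 0.44). Nppb, which encodes brain natriuretic peptide, had 2802, 2235 and 2318 normalized reads in sham replicates 1 to 3 and 17262, 11468 and 11519 in PAB replicates 1 to 3. It was already plentiful in sham, and PAB replicates 2 and 3 were alike with replicate 1 above them. Its means differed 5.47-fold, a log2 fold change of 2.43 (SE 0.26).

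The pair changed its balance. Per kilobase of gene length, sham libraries held 3139 ± 392 normalized reads of Nppb and 240.0 ± 30.7 of Nppa (mean ± SD, n = 3). In PAB the levels per kilobase were 17178 ± 4264 for Nppb and 13941 ± 10213 for Nppa. Nppa moved from rank 20 to rank 3 among the 36 genes by level per kilobase, while Nppb moved from rank 5 to rank 1. A gene as low in sham as Nppa passes the limit on the mean only with high PAB values. Its low sham level, its rise in rank and the change of balance are thus in part selected for, and nothing is read from them. Without PAB replicate 1, an alternative chosen after seeing the data, the level of Nppa was 8216 and its rank 5, behind Nppb, Ankrd1, Mif and Des. In PAB the spread of Nppa between libraries was wider than its distance from Nppb. Of a list of 12 genes of the natriuretic peptide system, 3 were listed in the table. The other was Prkg1, the kinase that cyclic GMP activates downstream of the peptides' receptors, with 36.9, 18.7 and 40.9 normalized reads in sham replicates 1 to 3 and 194, 58.5 and 84.4 in PAB replicates 1 to 3. All 3 were higher in PAB, and none of the receptors Npr1, Npr2 and Npr3 was listed.

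Of the 865 exonic bases of Nppa, 532 lie under exons of the antisense gene Gm13054, and it is not stated whether reads were counted by strand. Gm13054 itself had 0, 2.81 and 2.10 normalized reads in sham and 98.0, 31.7 and 30.8 in PAB replicates 1 to 3. Reads from the shared stretch cannot be given to either gene without strand, so the Nppa values carry that limit. No exon of another gene overlaps those of Nppb.

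Muscle cytoskeleton and Z-disc proteins held the largest share of the reads among the roles. The 9 genes of this role summed to 42353, 41626 and 46750.3 normalized reads in sham replicates 1 to 3 and 162108, 99599.9 and 81492 in PAB replicates 1 to 3, which was 48.8% of the reads of the 36 genes in PAB and 52.2% in sham. Des encodes desmin, the intermediate filament that links Z-discs to each other and to the cell membrane, and had 18919.8, 19248 and 19764 normalized reads in sham replicates 1 to 3 and 56436, 36291 and 27147 in PAB replicates 1 to 3. Its sham libraries were nearly equal, and all PAB libraries were above them, replicate 3 by the least. The ratio of its means was 2.07 and its log2 fold change 0.98 (SE 0.32). Ankrd1 encodes a stretch-responsive ankyrin repeat protein of the I-band and nucleus, and had 8216, 7898 and 10944 normalized reads in sham replicates 1 to 3 and 39541, 26235 and 22444 in PAB replicates 1 to 3. Sham replicate 3 was the highest sham library, and the lowest PAB library was still 2.05 times as high. Its means differed 3.26-fold. Des and Ankrd1 gave 13.7% and 13.5% of the summed difference between the PAB and sham means of the 36 genes.

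Fhl1, a LIM protein that binds titin and takes part in stretch sensing, had 2779, 2658 and 3398 normalized reads in sham replicates 1 to 3 and 19699.6, 7103 and 7683 in PAB replicates 1 to 3. Replicate 1 alone was very high, and PAB replicates 2 and 3 were close together, well above sham. The ratio of its means was 3.90, and 2.51 without PAB replicate 1. Hspb1, the small heat-shock protein that protects actin and desmin filaments, had 3785, 3896 and 4436 normalized reads in sham replicates 1 to 3 and 14824, 9342 and 6461 in PAB replicates 1 to 3. The groups were apart, with PAB replicate 3 nearest to sham, and the means differed 2.53-fold. Hspb1 was the sole listed gene of a list of 20 heat-shock proteins and chaperones. Over 630 bases its transcript is at least 95% identical to the pseudogene Hsp25-ps1, so its reads are uncertain where a read fits both.

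Clic5, a chloride intracellular channel protein tied to the actin cortex, had 1650.3, 1544 and 1872 normalized reads in sham replicates 1 to 3 and 10865, 6176 and 4621 in PAB replicates 1 to 3. Its sham values were close together, and no PAB library came near them. The means differed 4.28-fold, a log2 fold change of 2.01 (SE 0.31). Tpm2, the beta chain of tropomyosin on the thin filament, is given in every library because its pattern differed from the rest, a choice made after its values were seen. It had 1728, 1689.9 and 1403 normalized reads in sham replicates 1 to 3 and 4982, 4466 and 4660.1 in PAB replicates 1 to 3. The 3 PAB libraries were nearly equal and all above sham, and it was the single gene of the 36 whose coefficient of variation (CV) was smaller in PAB (5.55%) than in sham (11.0%). The other 3 genes of this role act on actin filaments. Mical2 encodes an enzyme that oxidises actin, Enah a protein that speeds filament growth, and Synpo an actin-bundling protein. Their ratios of means ran from 2.08 (Mical2) to 2.495 (Synpo).

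Most other genes of the same machinery were not in the table. Of a list of 33 Z-disc, costamere and mechanical stress proteins, 6 were listed, 5 higher and 1 lower in PAB. Besides Des, Ankrd1, Fhl1 and Enah these were Myoz1, a calsarcin, with 24.6, 38.3 and 11.5 normalized reads in sham replicates 1 to 3 and 114, 70.4 and 39.7 in PAB replicates 1 to 3, and Tcap, the titin cap protein, with 6398, 6877 and 4782 normalized reads in sham replicates 1 to 3 and 2607, 2543 and 2793 in PAB replicates 1 to 3. Myoz1 was scarce and higher in every PAB library, while Tcap was abundant and lower in every PAB library. Xirp2, kept off that list, was higher in PAB. Of a list of 26 thick and thin filament proteins, 4 were listed. Tpm2 was higher, and the skeletal forms Tnnt1, Tnni2 and Myl1 were lower, with log2 fold changes of -1.03, -2.85 and -1.30 in limma. Acta1, the skeletal actin that was kept off the list, was 16.7 times as high in PAB as in sham, so the skeletal forms did not all go the same way. Of 10 cardiomyocyte markers, Pln, the regulator of the calcium pump, was the sole one listed, with 21385, 21925 and 27039 normalized reads in sham replicates 1 to 3 and 9037, 10319 and 12438 in PAB replicates 1 to 3. It was lower in every PAB library. With median-ratio scaling Tcap, Tnnt1 and Pln were no longer called. The other 9 markers, Myh6, Tnnt2 and Actc1 among them, have no value in the table, so the share of cardiomyocytes in each library could not be followed, and its part in the result was not tested.

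Extracellular matrix proteins and their modifiers were the largest role by number, with 10 genes. They summed to 16051, 15164 and 16257 normalized reads in sham replicates 1 to 3 and 64832, 38565 and 29808 in PAB replicates 1 to 3. The groups were apart and PAB replicate 1 was again well above replicates 2 and 3. Bgn encodes biglycan, a small proteoglycan that binds collagen fibrils, and had 7771, 7689 and 8239 normalized reads in sham replicates 1 to 3 and 22339, 15064 and 14192 in PAB replicates 1 to 3. Its sham libraries were close together, PAB replicates 2 and 3 were alike and replicate 1 was higher, for a 2.18-fold difference of the means. Mgp encodes matrix Gla protein, an inhibitor of calcification, and had 2790.0, 2446 and 2487 normalized reads in sham replicates 1 to 3 and 9609, 6616 and 4648 in PAB replicates 1 to 3. The groups did not overlap, and the ratio of the means was 2.70. Tgm2 encodes the cross-linking enzyme transglutaminase 2, and had 1900.0, 1703 and 1907 normalized reads in sham replicates 1 to 3 and 8397, 3887 and 3089.5 in PAB replicates 1 to 3. PAB replicate 1 was more than the sum of the other PAB libraries, and the means differed 2.79-fold.

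The largest ratios of means in this role were those of Col8a1 and Thbs4. The limit is on the mean over all 6 libraries, so a gene low in sham enters only with high PAB values. Nothing is therefore read from their low sham level. Col8a1, a short-chain collagen of vessel walls, had 145, 151 and 149 normalized reads in sham replicates 1 to 3 and 3250.4, 1372 and 1047 in PAB replicates 1 to 3. Thbs4, a thrombospondin made by stressed muscle and its stroma, had 183, 260.0 and 206 normalized reads in sham replicates 1 to 3 and 3766, 1257 and 926 in PAB replicates 1 to 3. Both were low in every sham library and many times higher in every PAB library, with replicate 1 far above the other PAB libraries. Their means differed 12.8-fold and 9.17-fold, and 8.17-fold and 5.04-fold without PAB replicate 1. The log2 fold changes were 3.49 (SE 0.37) for Col8a1 and 2.93 (SE 0.44) for Thbs4.

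Igfbp3, which binds insulin-like growth factors outside the cell, had 669, 554 and 607 normalized reads in sham replicates 1 to 3 and 5116, 3277 and 1613 in PAB replicates 1 to 3. Adamtsl2, a secreted protein that lies with fibrillin in microfibrils, had 397, 397 and 331 normalized reads in sham replicates 1 to 3 and 3043, 1629 and 748 in PAB replicates 1 to 3. Timp3, an inhibitor of matrix metalloproteinases, had 559.9, 466 and 697 normalized reads in sham replicates 1 to 3 and 2323, 1542 and 781 in PAB replicates 1 to 3. In all 3 genes the PAB libraries were widely spaced, replicate 1 highest and replicate 3 lowest, and for Timp3 the lowest PAB value was 1.12 times the highest sham value. The ratios of the means were 5.47 for Igfbp3, 4.82 for Adamtsl2 and 2.70 for Timp3, and that of Adamtsl2 was 3.17 without PAB replicate 1. Adam9, a membrane metalloproteinase, and Qsox1, a secreted enzyme that makes disulfide bonds, had ratios of 2.93 and 2.80. Exons of other genes on the opposite strand cover 21.3% of the exonic bases of Timp3 (Syn3) and 21.8% of those of Tgm2 (Gm20412 and Rprd1b), and none of these overlapping genes is in the table.

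Among listed genes of a list of 19 collagens, Col8a1 stood beside Col8a2, Col9a2, Col11a1 and Col12a1, and all 5 were higher in PAB. Of these, Col12a1 came closest in reads, with 190.1, 238 and 273 normalized reads in sham replicates 1 to 3 and 2419.7, 1053 and 499 in PAB replicates 1 to 3. Of 42 other matrix and matricellular proteins, 6 were listed, 5 higher and 1 lower. Besides Bgn, Thbs4 and Timp3, Cilp had 103, 108 and 154 normalized reads in sham replicates 1 to 3 and 1995, 981 and 506 in PAB replicates 1 to 3, and Wisp2 had a log2 fold change of 2.75. Both were higher in every PAB library, while Nov, a relative of Wisp2 in the CCN family, had 1858, 1623 and 1819.6 normalized reads in sham replicates 1 to 3 and 137, 502 and 707 in PAB replicates 1 to 3 and was lower in every PAB library. Of 12 collagen and elastin processing enzymes P4ha3 and P3h2 were listed, and both were higher, with log2 fold changes of 1.17 and 2.59. Lox, Loxl2 and Plod2, kept off that list, are in the table too. Of 12 fibroblast markers, Dpt (dermatopontin) was the sole listed one, with 4720.3, 4759 and 4649 normalized reads in sham replicates 1 to 3 and 1487, 2281 and 2511 in PAB replicates 1 to 3. It was lower in every PAB library, but not called with median-ratio scaling. The other 11, Pdgfra and Col1a1 among them, have no value in the table, so a part of fibroblast number in these differences was not tested.

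A further 5 genes act at the vessel wall and in clotting. They summed to 6399.9, 5728 and 6086 normalized reads in sham replicates 1 to 3 and 20053, 14406 and 9021 in PAB replicates 1 to 3. All PAB sums were above all sham sums, with PAB replicate 3 nearest to sham. Vwf, the von Willebrand factor that endothelial cells store, and Thbd, the thrombin receptor thrombomodulin, are given in every library as exceptions chosen after their values were seen. Vwf had 1488, 1334 and 1283 normalized reads in sham replicates 1 to 3 and 4792, 3251 and 1637 in PAB replicates 1 to 3. Its PAB replicate 3 was 1.10 times the highest sham library, the narrowest gap between groups among the 36 genes. Thbd had 1045, 1067 and 950.2 normalized reads in sham replicates 1 to 3 and 2156, 2443 and 1532 in PAB replicates 1 to 3. It was the single gene of the 36 that was highest in PAB replicate 2. F2r, a receptor that thrombin cleaves, Ace, the angiotensin-converting enzyme, and Unc5b, a netrin receptor of endothelium, had ratios of means of 2.20, 3.64 and 2.33. Of 12 endothelial markers Vwf alone was listed, with Flt1 kept off the list. Pecam1, Cdh5, Kdr and the other 8 have no value in the table, and the part of endothelial cell number was not tested. Of 10 smooth muscle and pericyte markers none was listed, but Cnn1, kept off the list, is in the table and was higher in PAB.

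Of the other secreted proteins, Mif, a cytokine with tautomerase activity that most cells make, had 3330.0, 3309 and 3277 normalized reads in sham replicates 1 to 3 and 6817, 6366 and 6797 in PAB replicates 1 to 3. Its libraries were nearly equal within each group and the groups were far apart. Its CV was 0.801% in sham and 3.83% in PAB, the lowest of the 36 genes in both groups, and its means differed 2.01-fold. Mif shares stretches of at least 100 bases at 95% identity with 6 other genes, the longest of 508 bases, so its level is uncertain where reads fit a copy. Gpx3, the secreted glutathione peroxidase, had 2774, 2952 and 2533 normalized reads in sham replicates 1 to 3 and 9436, 4619.6 and 4402 in PAB replicates 1 to 3. PAB replicate 1 was high, and replicates 2 and 3 were alike and nearer to sham, for a ratio of means of 2.23. Clu, the extracellular chaperone clusterin, had a ratio of 2.53. Of 16 metallothioneins and antioxidant enzymes, Gpx3 and Sod3 were listed, and both were higher.

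The last 7 genes have roles in metabolism and signalling, and summed to 8003, 7204 and 8149.9 normalized reads in sham replicates 1 to 3 and 26515, 16539 and 13008 in PAB replicates 1 to 3. They are Glul (glutamine synthetase), Uck2 (a uridine and cytidine kinase), Rcan1 (a regulator of the phosphatase calcineurin), Tnfrsf12a (the receptor of the cytokine TWEAK), Rasl11b (a small GTPase of the Ras family), Strn (the scaffold protein striatin) and Fat1 (a large cadherin). Their ratios of means ran from 2.001 (Tnfrsf12a) to 3.30 (Uck2). Each was highest in PAB replicate 1 and lowest in PAB replicate 3 among the PAB libraries. The Glul transcript shares a stretch of 1126 bases with the pseudogene Glns-ps1, with the same limit on its reads.

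The same PAB library was the highest in nearly all of the 36 genes. PAB replicate 1 was the highest PAB library in 35 of the 36 genes, and replicate 3 the lowest in 32 and replicate 2 in 4. Beside them, replicate 1 was the highest in 85.4% of the 254 other listed genes higher in PAB. Against the sham mean, the median fold of the 36 genes was 3.80 in PAB replicate 1, 2.39 in replicate 2 and 1.79 in replicate 3. In the other listed higher genes these medians were 4.04, 2.64 and 2.12. The same library was also farthest from sham among abundant protein-coding genes that were lower in PAB, being the lowest PAB library in 17 of 23, beside 58.7% of all listed genes lower in PAB. These shares were not compared by a test, since genes of a library are not independent.

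How far the PAB libraries lay apart differed between genes. The highest PAB value was 4.40 times the lowest for Nppa, 4.07 for Adamtsl2 and 4.07 for Thbs4, but 1.07 for Mif, 1.12 for Tpm2 and 1.51 for Nppb. It was 3 or more in 6 of the 36 genes, namely Nppa, Adamtsl2, Thbs4, Ace, Igfbp3 and Col8a1. Of these, Adamtsl2, Thbs4, Ace and Col8a1 fell below the limit on the mean when PAB replicate 1 was left out. A wide spread between PAB libraries was thus in part selected for, and nothing is read from which genes these are. The median of this ratio over the 36 genes was 2.16, beside 1.20 for the highest over the lowest sham value. The median CV was 43.1% in PAB and 9.29% in sham, and in the other listed higher genes 39.9% and 21.9%. Counting error alone gives a CV of at most 8.31% at the lowest value of any of the 36 genes, taking a normalized read as 1 read. In 5 genes, Thbs4, Nppa, Col8a1, Fhl1 and Adamtsl2, the ratio of the means was over 1.5 times that without PAB replicate 1. Without that library the 36 ratios ran from 1.61 (Fat1) to 34.2 (Nppa), with a median of 1.99.

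**Figure D2:**
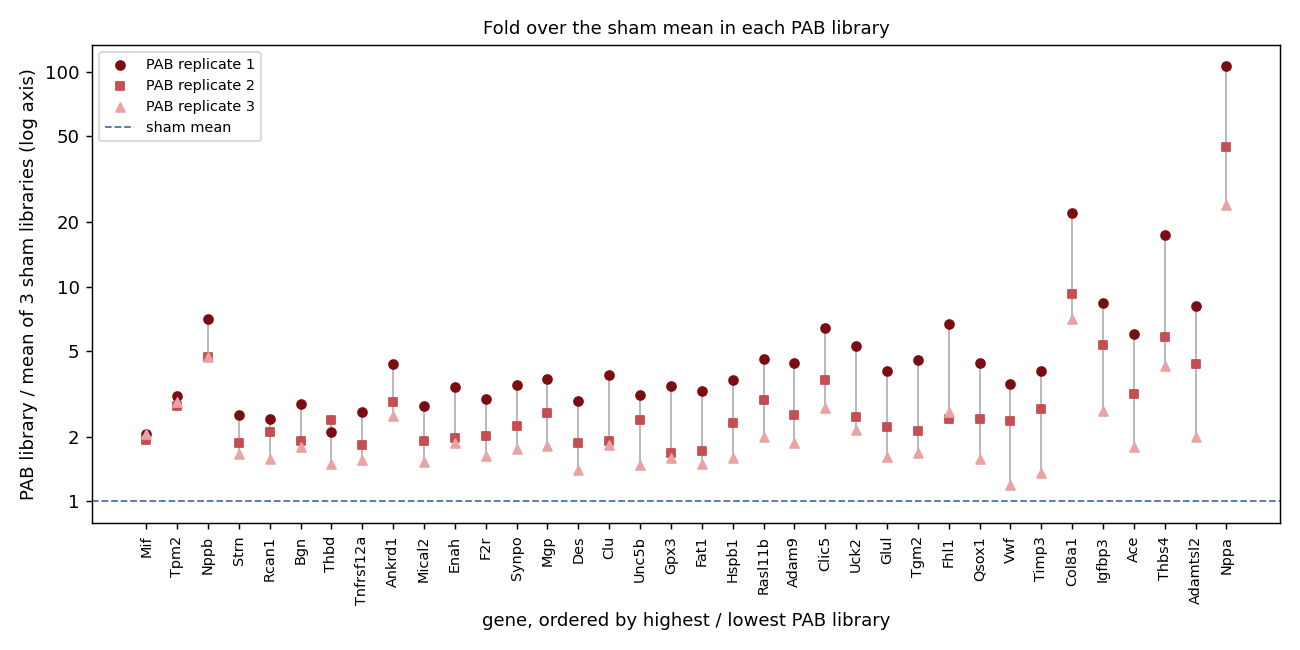
Value of each of the 36 genes in each PAB library divided by the mean of the 3 sham libraries, on a log axis, with genes ordered by the ratio of the highest to the lowest PAB library. Mif and Tpm2 at the left have nearly equal folds in all PAB libraries, and Adamtsl2 and Nppa at the right differ 4.07-fold and 4.40-fold between libraries.

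Read totals favour long genes, so levels are compared between genes per kilobase of the gene length in the table. In PAB the highest levels per kilobase were those of Nppb at 17178 ± 4264, Ankrd1 at 16661 ± 5087, Nppa at 13941 ± 10213, Des at 10644 ± 3992 and Hspb1 at 9902 ± 4120.5 normalized reads (mean ± SD, n = 3). Neighbours in this order lay within their spread between libraries. In sham the order per kilobase was Des at 5144 ± 113, Ankrd1 at 5110.1 ± 949, Mif at 4437 ± 35.5, Hspb1 at 3918 ± 338 and Nppb at 3139 ± 392. Of these, Des and Ankrd1, and Ankrd1 and Mif, differed by less than the SD of Ankrd1. The lowest levels per kilobase in PAB were those of Timp3 at 190.2 ± 94.7, Strn at 182 ± 41.0 and Fat1 at 113 ± 50.4. Without PAB replicate 1 Mif was at rank 3, Nppa at rank 5 and Hspb1 at rank 6, and the lowest were Adamtsl2, Timp3 and Fat1. Among the longest of the 36 genes were Enah, Vwf, Fat1 and Mical2, with gene lengths of 21452, 16064, 15655 and 15218 bases, and they ranked 32, 33, 36 and 28 of 36 per kilobase in PAB. The length of Ankrd1 in the table, 1765 bases, is shorter than the 2886 bases of its merged exons in the GENCODE annotation, and the other 35 lengths were equal, so its level per kilobase depends on the annotation.

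At the limit of 1000, the genes just inside were Col8a1 with a mean of 1019, Timp3 with 1061 and Adamtsl2 with 1091 normalized reads. Just outside were Plod2, a symbol left out by name, at 961, then Cystm1, Lrrc2 and Piezo1. Cystm1 had 602, 532 and 713 normalized reads in sham replicates 1 to 3 and 1657, 1211 and 997 in PAB replicates 1 to 3, a mean of 952. Lrrc2 had 494, 426 and 495 normalized reads in sham replicates 1 to 3 and 1710.4, 1263 and 1297 in PAB replicates 1 to 3, a mean of 948. Piezo1, a stretch-gated ion channel, had 645, 579.8 and 557 normalized reads in sham replicates 1 to 3 and 1747, 1323 and 799 in PAB replicates 1 to 3, a mean of 942. All 3 were higher in every PAB library, as the genes inside the limit were. Since the limit is on a mean that the PAB libraries raise, leaving out PAB replicate 1 kept 30 of the 36 genes and lost Ace, Adamtsl2, Col8a1, Rasl11b, Thbs4 and Timp3. This alternative was chosen after seeing the data.

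Other lists of genes linked to load and to secreted signals held few of the 36 genes. Of 38 secreted growth factors and cytokines, 8 were listed, 6 higher and 2 lower. Igfbp3 was the sole one among the 36. Edn1, the vasoconstrictor endothelin, had 242, 173 and 203 normalized reads in sham replicates 1 to 3 and 575, 442 and 368 in PAB replicates 1 to 3. It was higher in every PAB library, while Apln, the peptide apelin, had 2931, 2024 and 2704 normalized reads in sham replicates 1 to 3 and 1101, 1369.6 and 1193 in PAB replicates 1 to 3 and was lower in every PAB library, though with median-ratio scaling its groups overlapped and it was not called. Of 27 genes of glycolysis and lactate handling 3 were listed, Gbe1 and Slc16a3 higher and Pfkfb1 lower, with Pfkp, Pgam1 and Aldoc kept off the list. Pfkfb1 was not called with median-ratio scaling. Of 21 hypoxia-responsive genes Car9 and Stc1 were listed, and both were higher, with Bnip3 and Ddit4 kept off the list. Of 26 immediate-early and stress transcription factors, Egr2, Egr3 and Runx1 were listed and higher, and Egr2 was not called without PAB replicate 1. None of 14 membrane transporters and pumps, a list without Slc2a1 and Slc6a6, and none of 14 cell cycle genes was listed.

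Markers of other cell types were listed in part, and whether they were rarer in the table than other genes was not tested. Of 12 myeloid markers C1qa was listed, with 666, 700.4 and 643 normalized reads in sham replicates 1 to 3 and 312, 271 and 347 in PAB replicates 1 to 3, and it was lower in every PAB library. Of 8 atrial cardiomyocyte markers Stard10 and Tbx5 were listed, with sums of 478, 618 and 573 in sham replicates 1 to 3 and 155, 165 and 204 in PAB replicates 1 to 3. Both were lower in PAB, and Myl7, Myl4 and Sln were not listed, so a part of atrial tissue was not tested. Of 10 epicardial and mesothelial markers Krt8 and Krt18 were listed, with sums of 385, 309.5 and 335 normalized reads in sham replicates 1 to 3 and 1538, 1057 and 1099.7 in PAB replicates 1 to 3, Krt18 being the more abundant. These were higher in every PAB library, Wt1, Upk3b and Msln were not listed, and their part in the result was not tested. Of 8 Schwann and neural markers Dbh was listed, with 122, 151 and 99.6 normalized reads in sham replicates 1 to 3 and 8.52, 5.95 and 13.9 in PAB replicates 1 to 3, and it was lower in every PAB library. None of 8 lymphoid and none of 8 erythroid markers was listed. Of the 54 listed genes of all these lists, 14 were called lower in PAB. With median-ratio scaling over the listed genes, an alternative chosen for the lists after seeing the data, no direction could change. This scaling moves the genes by about 0.59 on the log2 scale, and every listed lower gene differed by more. Of the 14 lower ones, 7 were no longer called, beside 139 of all 327 listed lower genes. These were Apln, Dpt, Pfkfb1, Pln, Tbx5, Tcap and Tnnt1, with overlapping groups in Apln and Tbx5, so these calls depend on the scaling.

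The 36 genes lie on 16 chromosomes, with at most 5 on any of them. Nppb (chr4:147985788-147987205) and Nppa (chr4:148000722-148002079) are on the plus strand of GRCm38 with 13516 bases between them, and no annotated gene lies wholly within that gap. The next closest pair of neighbours among the 36 genes is 1866305 bases apart. On the opposite strand, exons of other genes cover at most 5.86% of the exonic bases of Des, Ace, Glul, Fat1, Uck2 and Qsox1, and 2.80% of those of Glul lie under exons on its own strand. Stretches of at most 282 bases in Enah, Vwf, Qsox1, Strn and Mical2 are at least 95% identical to other transcripts.

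Promoter windows from RefSeq (GRCm38.p6), from 250 bases before to 50 after the annotated start, were found for 29 of the 36 genes, with 32 windows in all. Adam9, Clu, Mgp, Synpo, Tgm2, Thbd and Vwf had none in the table of windows. Motifs were searched by their letters on both strands. TATAAA occurred in 5 of the 32 windows (15.6%), those of Ace, Adamtsl2, Fhl1, Nppa and Nppb, beside 13.6% of all 32851 windows. The MCAT motif CATTCC occurred in 7 (21.9%), those of Ankrd1, Fat1, Hspb1, Mif, Nppb, Rasl11b and Thbs4, beside 14.7%. The AP-1 motifs TGAGTCA and TGACTCA occurred in 2 (F2r and Rcan1; 6.25% beside 5.20%), and the hypoxia element ACGTG in 4 (Mical2, Mif, Rasl11b and Rcan1; 12.5% beside 19.6%). The CArG box occurred in 1 window of Fhl1 (3.12% beside 1.63%). Each of the 32 windows counts for 3.12% here, and a match is a description of the letters, not of a bound site.

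The windows of the neighbours Nppa (chr4:148000472-148000771, plus strand) and Nppb (chr4:147985650-147985949, plus strand) and that of Ankrd1 (chr19:36119795-36120094, minus strand) are given, a choice made after the values were seen. By the lengths in the table these genes were among the 5 with the highest levels per kilobase in PAB, with or without PAB replicate 1. The windows of Ankrd1 and Thbs4 hold CATTCC at 2 places each, which overlap in Thbs4, and the other windows with the motif at 1. Capitals mark TATAAA and CATTCC on either strand, so CATTCC reads GGAATG where it lies on the other strand. TATAAA begins 9 bases before the RefSeq start of Nppa and 31 bases before that of Nppb. The CATTCC match begins 105 bases before the RefSeq start in Nppb and 210 and 123 bases before it in Ankrd1, and the Nppa window has none. By the authors' and GENCODE coordinates Nppb starts at 147985788, before both of its matches, so these lie inside the gene as annotated there.
Nppa: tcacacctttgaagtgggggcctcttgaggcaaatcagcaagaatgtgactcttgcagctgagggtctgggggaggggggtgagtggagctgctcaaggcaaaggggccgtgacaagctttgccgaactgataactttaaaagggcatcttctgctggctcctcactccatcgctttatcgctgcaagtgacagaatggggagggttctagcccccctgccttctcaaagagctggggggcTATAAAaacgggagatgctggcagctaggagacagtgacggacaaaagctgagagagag
Nppb: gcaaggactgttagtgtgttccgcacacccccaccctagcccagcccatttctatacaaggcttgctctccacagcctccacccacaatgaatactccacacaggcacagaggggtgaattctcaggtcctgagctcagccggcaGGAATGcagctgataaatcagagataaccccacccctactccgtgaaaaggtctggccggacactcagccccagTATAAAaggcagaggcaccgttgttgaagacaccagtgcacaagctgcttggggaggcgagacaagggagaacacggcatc
Ankrd1: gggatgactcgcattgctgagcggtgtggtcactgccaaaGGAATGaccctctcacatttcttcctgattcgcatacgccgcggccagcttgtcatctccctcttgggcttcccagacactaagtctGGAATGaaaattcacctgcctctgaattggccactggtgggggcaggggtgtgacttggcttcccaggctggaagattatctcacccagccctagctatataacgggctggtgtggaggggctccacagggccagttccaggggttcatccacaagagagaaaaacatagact

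The mouse qPCR primers published with the series for Nppa and Nppb show which part of each transcript a targeted assay reads. In the GENCODE transcripts each pair matched in full, with the forward primer in exon 1 and the reverse primer in exon 2, and spans 126 bases in Nppa and 100 in Nppb. All 19 bases of the reverse primer of Nppa lie where exons of Gm13054 run on the opposite strand, and none of the other 3 primers does.
Nppa forward: gcttccaggccatattggag
Nppa reverse: gggggcatgacctcatctt
Nppb forward: gaggtcactcctatcctctgg
Nppb reverse: gccatttcctccgacttttctc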

How the data were processed

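RV tissue of 3 sham and 3 PAB libraries was sequenced as RNA. The extraction text of the labels names rat, while organism and strain name mouse. The gene identifiers are those of mouse, and the libraries were treated as mouse. Per the labels, reads were processed with HISAT2 2.0.5, StringTie 1.3.3b, featureCounts 1.5.0-p3 and GATK 3.7 on build mm10, and the authors compared the groups with DESeq2. The deposited values are named FPKM, but they are a signal on the scale of gene counts over a library's size factor. For each of the 6 libraries a step was found of which 100% of the values are whole multiples, with a tolerance of 0.01 step. Gene lengths in bases are the authors' other deposited column used. The library preparation kit is named but strand counting is not stated.

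The table was fitted as a whole in R 4.3.3 by limma 3.58.1, using lmFit and a two-sided eBayes with trend, on log2(value + 1), with a minimum mean of 0.1 that removed no gene, Benjamini-Hochberg adjustment over all 617 genes and a threshold of 0.05. A fold change on this scale understates that of low genes. Groups and numbers came from the sample labels. The members and the gene lists were chosen with earlier results of these data known, and the grouping by role was made after the members were known. Values in every library are given for the 12 genes with the highest mean, the 8 with the largest log2 fold change, and the 3 just inside and just outside the limit; listed genes of the lists may be named. A list symbol that RefSeq holds only as a synonym was matched by its newer symbol, which found P3h2 (Leprel1). The fit was tested on simulated data with the same spread in both groups, taken from the sham libraries, so the wider spread in PAB was not covered. Exon overlap and shared stretches (blastn 2.17.0, at least 100 bases at 95% identity) came from GENCODE on GRCm38, where all 36 genes were found, 35 with the same coordinates as in the table. Other steps ran in Python 3.11.15 (matplotlib 3.10.9, numpy 2.4.6, pandas 2.3.3). Alternatives were another limit, pseudocount, filter, scaling and variance model, medians, a replicate block and leaving out each library. Precision is limited by 3 libraries per group, and the SD covers the spread between libraries. The SE is that of limma, from a variance pooled over both groups and moderated across the listed genes.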

Additional observations from a re-analysis of the deposited data

How the results depend on the processing

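The number of genes found depends on the limit, with 61 at a limit of 500 and 21 at 2000 normalized reads in place of 36, as fewer or more genes pass by construction. Medians in place of means gave 29, all of them among the 36, and leaving out each library gave 30 to 40, an alternative chosen after seeing the data. Median-ratio scaling over the listed genes raised the median log2 fold change of the 36 genes to 1.90 and their summed PAB over sham ratio to 4.29. It shifts the median of all listed genes by 0.59 on the log2 scale, since it assumes that most listed genes do not differ. With it 478 listed genes were called, 290 higher and 188 lower, so that 60.7% of calls were higher in place of 47.0%.

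With each library left out, the median log2 fold change of the 36 genes was lowest without PAB replicate 1, at 0.96, and highest at 1.58 without PAB replicate 3, with their summed ratio between 2.20 and 3.22. The 36 genes were each higher under every alternative run. Des alone fell short of an adjusted p-value of 0.05 in limma, at 0.0521 without sham replicate 1 and 0.0555 without sham replicate 2 (range over all alternatives 0.0024 to 0.0555). Its log2 fold changes there were 0.97 and 0.98, beside 0.98 in the main fit. Since the genes were selected on the PAB and sham means, their directions and p-values are favoured by the selection, and no stability is read from them. Sham and PAB libraries of the same number had deviations from the mean of their group that correlated at -0.0593, -0.0546 and -0.199 across genes, so the numbers were not taken to pair libraries. With the replicate block limma called 616 listed genes in place of 617, 36 of the 36 among them, and no library correlated best with its own number. The planned edgeR alternative on whole reads was not run. The check for whole reads that it required needs at least 100 low values per library, and most libraries had fewer. Total depth is unknown.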
